A study of Mus musculus with 10 samples.

Results

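The genes described here are the 44 members of a list of autophagy and mitophagy machinery, matched by gene symbol, out of 39179 gene identifiers in the count tables. Their counts were high enough for testing in all 44 cases, among 12690 genes tested. The muscle was the tibialis anterior of the mouse leg, which is made mainly of fast fibres, and came from 4 Control mice and 6 LLC mice. The LLC mice had been injected under the skin of each flank with Lewis Lung Carcinoma cells, a mouse lung cancer line that makes the host lose body weight and muscle. The Control mice had received buffer (PBS) in the same places and carried no tumor. The sample labels give the strain as C57BL/6J, the age at injection as 10 weeks, and tumor development as 0 days in Control and 23 days in LLC. The series description gives C57BL/10 males of 8 weeks studied after 22 days, and which of these accounts holds was taken as unknown. Each library came from the muscle of 1 mouse, and the tumor line was the only treatment that the LLC group had and the Control group did not.

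Autophagy is the route by which a cell wraps part of its own cytoplasm in a double membrane and delivers it to the lysosome for breakdown. The ULK1 kinase complex starts the process, a lipid kinase complex around PIK3C3 marks the site, ATG9, ATG2 and WIPI proteins enlarge the membrane, and a chain of conjugating enzymes attaches small ubiquitin-like ATG8 proteins (the LC3 and GABARAP groups) to it. Receptors that bind ATG8 proteins bring in cargo, and in mitophagy that cargo is mitochondria. In skeletal muscle autophagy is known as a route of protein and organelle loss during fasting, denervation and wasting, beside the ubiquitin-proteasome system, and several of its genes are known targets of FoxO transcription factors and of TFEB.

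Because these genes are often discussed through those factors, the RefSeq promoter windows (build GRCm38.p6, 250 bases before to 50 bases after each annotated start) were searched on both strands for short motifs. At least 1 window was matched by symbol for 36 of the 44 genes, 46 windows in all. The FoxO core GTAAACA was in 0 of these 36 genes, against 4.05% of all genes with a window, and so few genes cannot tell 0 from that share. The TFEB-type E-box TCACGTG was in 4 genes (11.1%), namely Atg3, Atg7, Atg14 and Retreg1, against 4.29% of all genes. The shorter E-box core CACGTG, which every TCACGTG contains, was in those 4 and in Atg5 and Bnip3, 6 genes (16.7%) against 8.09% of all. Counted by window, TCACGTG was in 8.70% of the member windows and in 3.77% of all windows. A match is only these letters in this window, and genes with several annotated starts, such as Retreg1, had more windows to match in. All genes were not matched to the members for base composition, so neither depletion nor enrichment of a motif can be read from these shares. The stretches around the sites of 3 genes are shown in the direction of transcription, with the E-box letters in capitals.
Retreg1, chr15:25942440-25942546, plus strand: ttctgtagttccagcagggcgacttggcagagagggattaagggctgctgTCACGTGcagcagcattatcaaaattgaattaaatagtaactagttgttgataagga
Atg7, chr6:114670913-114671019, plus strand: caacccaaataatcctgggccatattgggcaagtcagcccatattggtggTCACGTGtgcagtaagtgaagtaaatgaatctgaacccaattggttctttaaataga
Atg3, chr16:45158684-45158778, plus strand: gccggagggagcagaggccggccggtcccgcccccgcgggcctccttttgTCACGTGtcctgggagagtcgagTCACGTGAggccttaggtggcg
The Retreg1 stretch lies inside the gene, upstream of a start of shorter protein-coding transcripts, and its E-box begins at position -189 from that start. The Atg7 stretch also lies inside its gene and outside annotated exons, with the E-box beginning at -133 from a RefSeq start. The nearest GENCODE start of Atg7 is 9066 bases from that RefSeq start and belongs to a processed transcript. In Atg3 the motif occurs at 2 places, of which the nearer to the start reads as TCACGTG on both strands. In Atg14 the motif spans the annotated start itself, and that stretch lies in annotated exons.

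The depth ran from 16693209 to 21303084 counts a library, and was 20072263 ± 943898 (SD) for the 4 Control libraries and 18053293 ± 1216717 (SD) for the 6 LLC libraries. LLC 1 stood apart from the other LLC samples across all genes: it was the highest of the 6 for 32.8% of tested genes and the lowest for 33.2%. Results are therefore also given without it. Fast-fibre marker genes were abundant in every sample. Their summed level was 124800 to 131500 CPM (counts relative to library size after TMM scaling) in Control, 120500 to 136000 in LLC 2 to LLC 6 and 84430 in LLC 1. Summed slow-fibre markers ran from 41.8 to 95.1 CPM in Control and from 9.57 to 33.9 CPM in LLC. Neutrophil markers ran from 1.54 to 3.61 CPM in Control and from 38.1 to 81.9 CPM in LLC. Of 14 listed, 11 were tested, and 11 passed as higher (adjusted p of 0.05 or less and at least 1.5-fold), against 1.65% of all genes. With sums this low in Control, such genes could enter the test through their LLC counts alone, so 11 of 11 is no separate support. Fibroblast markers ran from 330.3 to 419 CPM against 110.5 to 144 CPM. Of 8 tested, 7 passed as lower, against 3.99% of all genes, and 1 (Ly6a) as higher. Macrophage markers ran from 15.6 to 23.1 CPM in Control and from 9.79 to 17.5 in LLC, endothelial from 259 to 328 and from 239 to 279.6, erythroid from 58.8 to 83.4 and from 88.7 to 144, and adipocyte from 4.82 to 19.7 and from 4.97 to 12.7. By the adjusted p, 4 of 6 endothelial, 1 of 7 macrophage and 1 of 6 slow-fibre markers tested were lower, against 4.85% of all genes. Of 5 erythroid markers 3 were higher, against 2.14%, and no fast-fibre or adipocyte marker passed. None of these marker lists had a gene at 0 in all samples. In whole muscle, fewer cells of a type and less RNA per cell cannot be told apart, and the part these shifts have in the values below was not tested.

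The comparison asked which steps of autophagy had altered transcript levels in the muscle of tumor-bearing mice. Across the 44 genes the levels in LLC were mostly somewhat higher than in Control, with the largest values among the ATG8 genes, the cargo receptors and the mitophagy receptor Bnip3. The conjugation enzymes had 5 positive and 5 negative estimates, and held Atg10, which had the lowest estimate of the 44. Of the 44 genes, 33 (75.0%) had a higher estimate in LLC, where 50.3% of all tested genes did, and 11 had a lower one, where 49.7% of all genes did. The median log2 fold change was 0.26 over the 44 genes and 0.00 over all tested genes, and without LLC 1 it was 0.15 with the same 33 to 11 split. Every LLC sample lay above every Control sample for 13 genes (29.5%), against 6.40% of all tested genes, and every LLC sample lay below for 1 gene (2.27%), against 9.57%. Without LLC 1 these counts were again 13 and 1, against 7.84% and 10.4% of all genes.

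Few of these differences passed the test. By the quasi-likelihood test of edgeR, adjusted over all 12690 genes after Benjamini and Hochberg, 0 of 44 genes met both limits, an adjusted p no larger than 0.05 and a difference of 1.5-fold or more, where 1.65% of all genes did so as higher and 3.99% as lower in LLC. On the adjusted p alone 2 of the 44 passed, Ulk1 as higher, against 2.14% of all genes, and Atg10 as lower, against 4.85%. This count of 2 was 0 without Control 1, Control 2, Control 4 or LLC 6, 1 without Control 3, LLC 3 or LLC 5, and 4 without LLC 2. Calls over all genes moved too, from 887 to between 434 and 469 without 1 of the Control samples. They were 788 without LLC 3, 585 without LLC 5, 515 without LLC 6 and 937 without LLC 2. Losses of single calls given below are from these same fits. At an unadjusted p of 0.05 or less there were 18 higher genes (40.9%), against 12.7% of all genes, and 2 lower genes (4.55%), against 14.6%. These 20 genes became 12 without Control 1, Control 2 or Control 3 and 11 without Control 4. At that unadjusted level with a 1.5-fold change there were 4 higher genes, against 4.93% of all genes, namely Map1lc3b, Gabarapl1, Sqstm1 and Retreg1. DESeq2's Wald test put 2 genes past both limits, Gabarapl1 and Map1lc3b, both higher, against 3.06% of all genes. Limma voom with sample quality weights put 0 of the 44 there, against 997 of all 12690 genes in both directions together. Without LLC 1 edgeR gave an adjusted p of 0.05 or less to 7 genes that were higher, against 5.51% of all genes, and to 2 that were lower (Atg10 and Wipi1), against 8.72%. The 7 were Ulk1, Pik3c3, Map1lc3b, Gabarapl1, Calcoco1, Bnip3l and Pink1.

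**Figure D1:**
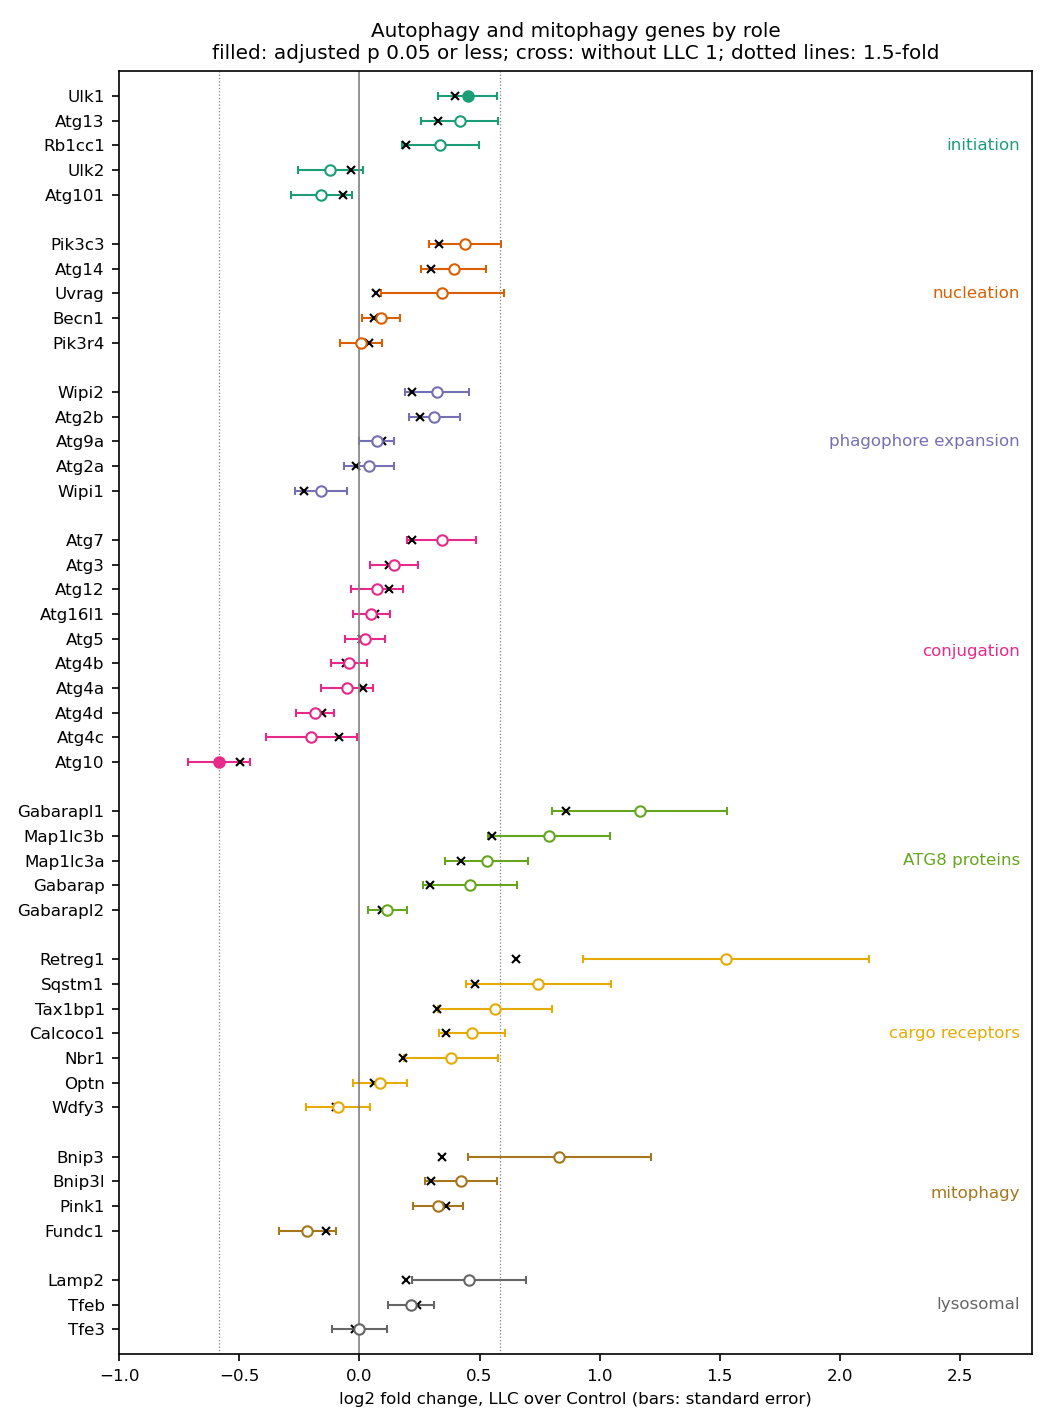
The horizontal axis is the log2 fold change of LLC over Control with its standard error, and each row is 1 of the 44 genes, grouped and coloured by role. Filled circles mark the 2 genes with an adjusted p of 0.05 or less (Ulk1 and Atg10), crosses the estimate without LLC 1 and dotted lines a 1.5-fold change. The cross lies far to the left of the circle for Retreg1 and Bnip3 and close to it for Pink1 and Tfeb.

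In the initiation complex 3 of 5 genes had a positive estimate, and 1, Ulk1, passed on the adjusted p, a share of the 44 genes close to that of all genes given above. Ulk1 encodes the kinase that starts autophagy when nutrients run short, and lies at chr5:110784488-110810097 on the minus strand. Ulk1 measured 97.2, 93.4, 86.6 and 96.2 CPM in the 4 Control samples and from 99.8 to 154 CPM in LLC, with a median of 124. All 6 LLC samples lay above the Control samples, LLC 2 only just, and LLC 1 and LLC 5 were the highest. The log2 fold change was 0.45 ± 0.12 (SE) with an adjusted p of 0.0478, close to the limit. Without LLC 1 it was 0.40 with an adjusted p of 0.0235, but the call was lost without any 1 of the 4 Control samples (adjusted p from 0.114 to 0.155) and without LLC 3 (0.0612), LLC 5 (0.0891) or LLC 6 (0.0949). Its paralog Ulk2 had no such difference, with a log2 fold change of -0.12 ± 0.14 and an adjusted p of 0.569.

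The other subunits gave a mixed picture. Atg13, which links ULK1 to its scaffold, measured 38.7, 43.1, 39.7 and 37.6 CPM in Control and 42.1 to 71.1 CPM in LLC with a median of 50.5. LLC 1, LLC 5 and LLC 6 lay above all Control samples and the other 3 overlapped with them (log2 fold change 0.42 ± 0.16, adjusted p = 0.128). The scaffold Rb1cc1 (FIP200) had 0.34 ± 0.16, which became 0.20 without LLC 1. Atg101, a partner of ATG13, had -0.16 ± 0.13.

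In the nucleation complex 5 of 5 genes had a positive estimate and 0 passed the test. Pik3c3, the lipid kinase itself (VPS34), measured 14.1, 16.4, 14.4 and 14.5 CPM in Control and 15.4 to 27.9 CPM in LLC with a median of 19.3. Only LLC 2 fell within the Control range (log2 fold change 0.44 ± 0.15, adjusted p = 0.0962). Atg14, the subunit that directs the kinase to sites of autophagosome formation, measured 7.57, 8.20, 7.79 and 7.83 CPM against 8.70 to 13.8 CPM with a median of 9.52. The groups did not overlap for Atg14 (0.39 ± 0.14, adjusted p = 0.100). Uvrag, which takes the place of ATG14 in a second form of the complex, had 0.35 ± 0.26, but its level was 23.2 CPM in LLC 1 and 8.28 to 11.7 CPM in the other LLC samples, and without LLC 1 the estimate was 0.07. Becn1 had 0.09 ± 0.08, with 4 of 6 LLC samples above all Control samples. The regulatory subunit Pik3r4 (0.01 ± 0.09) differed by less than the spread between samples. The sign of the Pik3r4 estimate changed with the scaling: it was -0.03 with upper-quartile factors.

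Over the phagophore expansion genes the median log2 fold change was 0.07, and the pairs of paralogs in this group did not have like values. Wipi2, which binds the lipid made by PIK3C3 and brings in ATG16L1, measured 32.5, 34.5, 35.3 and 35.9 CPM in Control and 36.4 to 59.0 CPM in LLC with a median of 40.6. The Wipi2 groups did not overlap (0.32 ± 0.13, adjusted p = 0.152). Wipi1 had -0.16 ± 0.11 (adjusted p = 0.349). It was 78.9 CPM in LLC 1, above all Control samples, and 54.5 to 67.4 CPM in the other LLC samples, of which 4 lay below all Control samples. Without LLC 1 the estimate for Wipi1 was -0.23 with an adjusted p of 0.0489. Atg2b, a lipid transfer protein, measured 22.4, 24.1, 25.6 and 26.1 CPM against 25.6 to 37.2 CPM with a median of 30.0 (0.31 ± 0.11, adjusted p = 0.0974), with LLC 5 alone inside the Control range. Its paralog Atg2a had 0.04 ± 0.10 and the scramblase Atg9a 0.07 ± 0.07.

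The conjugation enzymes were the group with the smallest median, -0.01 over 10 genes, with 5 positive and 5 negative estimates. They also held Atg10, the gene of the 44 that fell by the adjusted p, again no larger a share than over all genes. Atg10 encodes the E2-like enzyme that passes ATG12 to ATG5. It lies at chr13:90935356-91223968 on the minus strand. Atg10 measured 9.16, 9.23, 8.71 and 10.1 CPM in Control and 4.47, 6.83, 7.24, 6.50, 6.40 and 5.81 CPM in LLC 1 to LLC 6. Every LLC sample lay below every Control sample, with LLC 1 the lowest. The LLC level was 0.667 of that in Control (log2 fold change -0.58 ± 0.13, adjusted p = 0.0206), which falls just short of the 1.5-fold limit. Without LLC 1 it was -0.50 with an adjusted p of 0.00595, but the call was lost without Control 1 (0.0607), Control 2 (0.0572), Control 4 (0.0765) or LLC 6 (0.0524).

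The substrates that ATG10 joins did not share this difference. Atg12 had 0.07 ± 0.11, Atg5 0.02 ± 0.08 and their partner Atg16l1 0.05 ± 0.08, each with adjusted p of 0.682 or more. The sign for Atg5 changed to -0.01 with upper-quartile factors. Atg7, the E1-like enzyme that activates both ATG12 and the ATG8 proteins, measured 10.1, 9.78, 8.98 and 8.71 CPM in Control and 10.2 to 17.0 CPM in LLC with a median of 11.0. Its groups did not overlap, by a narrow margin between LLC 4 and Control 1 (0.34 ± 0.14, adjusted p = 0.157), and LLC 1 was far above the next LLC sample, at 11.4 CPM. Atg3, the E2-like enzyme for ATG8 proteins, had 0.15 ± 0.10.

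The ATG4 proteases, which trim ATG8 proteins before conjugation and release them afterwards, had negative estimates in 4 of 4 cases. Atg4d measured 42.6, 42.0, 40.3 and 39.6 CPM in Control and 33.4 to 40.2 CPM in LLC with a median of 36.1. In Atg4d 5 of 6 LLC samples lay below all Control samples (-0.19 ± 0.08, adjusted p = 0.161). Atg4c had -0.20 ± 0.19, Atg4a -0.05 ± 0.11 and Atg4b -0.04 ± 0.07, and the sign for Atg4a turned to 0.02 without LLC 1.

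**Figure D2:**
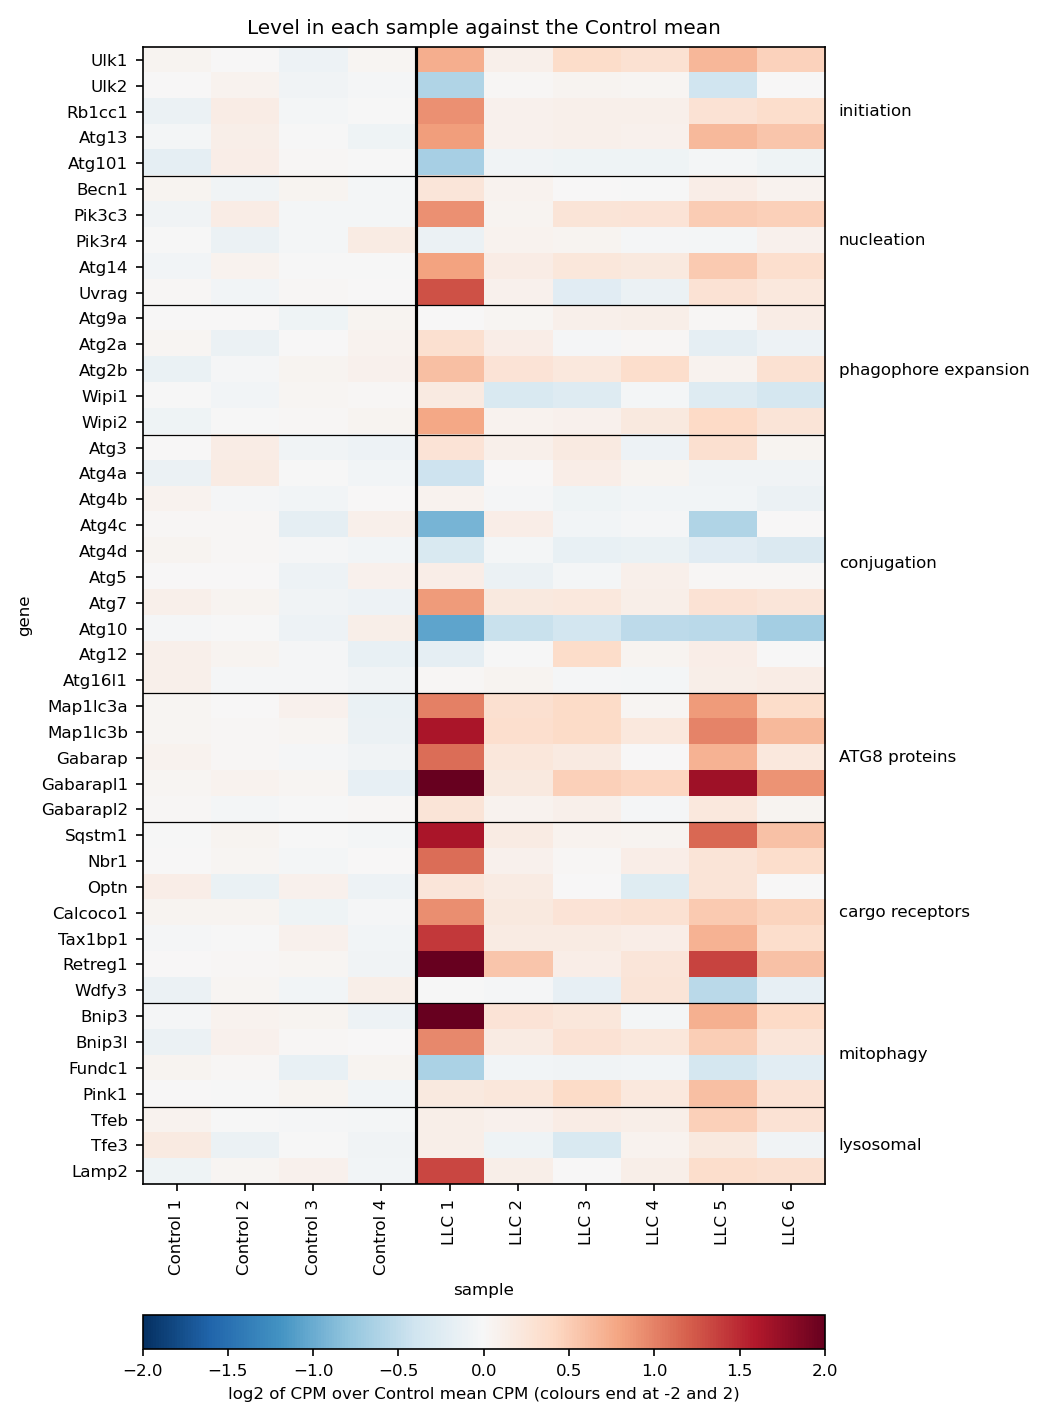
Each cell is the log2 ratio of a gene's CPM in 1 sample to its mean in Control, with the 44 genes in rows by role, the 4 Control and 6 LLC samples in columns, red for higher and blue for lower. Most ATG8 genes and cargo receptors, and Bnip3, are red mainly in LLC 1 and LLC 5. Gabarapl2 and Optn are pale in both of these samples, and Wdfy3 is light blue in LLC 5. Atg10 is blue in all 6 LLC samples, and the 4 Control columns are pale throughout.

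All 5 ATG8 genes had positive estimates, with a median of 0.53 (0.42 without LLC 1), the highest of the 8 role groups. None had an adjusted p of 0.05 or less in edgeR's test. Gabarapl1 (chr6:129533160-129542346, plus strand) encodes a GABARAP-group protein. It measured 31.7, 32.5, 31.6 and 27.6 CPM in Control and 138, 35.5, 43.0, 41.6, 100.1 and 57.4 CPM in LLC 1 to LLC 6. The groups did not overlap, and the highest and lowest LLC samples differed 3.88-fold. The log2 fold change was 1.17 ± 0.36 (2.24-fold, adjusted p = 0.0774), DESeq2's adjusted p was 0.0137, and without LLC 1 edgeR gave 0.86 with an adjusted p of 0.0430.

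Map1lc3b encodes LC3B, the protein most used as a marker of autophagosomes. It measured 152, 150.4, 152 and 137 CPM in Control and 456, 186, 193, 170.3, 295 and 231 CPM in LLC 1 to LLC 6. Again the groups did not overlap and LLC 1 and LLC 5 were the highest. The log2 fold change was 0.79 ± 0.25 (1.73-fold, adjusted p = 0.0834), with 0.0263 by DESeq2 and, without LLC 1, 0.55 with an adjusted p of 0.0229. Map1lc3b shares exonic sequence on the opposite strand with Zcchc14, which averaged 458 counts a library against 4018 for Map1lc3b.

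The remaining ATG8 genes had smaller values. Map1lc3a (LC3A) measured 131, 129, 136 and 117 CPM in Control and 132 to 257 CPM in LLC with a median of 166, LLC 4 being the only sample within the Control range (0.53 ± 0.17, adjusted p = 0.0898). Gabarap measured 92.8, 90.4, 87.4 and 84.8 CPM against 89.0 to 192 CPM with a median of 104 (0.46 ± 0.20, adjusted p = 0.159). LLC 4 again overlapped with Control. Gabarapl2 (GATE-16) had the smallest estimate of the 5, 0.12 ± 0.08.

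Because the 5 ATG8 genes differed in size of change, their make-up was computed on the scale of CPM per kilobase of exonic length. That length joins the exons of all annotated transcripts of a gene, so it can exceed that of the transcripts present. It was 7517 bases for Map1lc3b and 1181 for Map1lc3a, whose CPM in Control averaged 148 and 128. The shares of the genes therefore depend on it. In Control the summed level of the 5 genes was 223 ± 9.83 (SD, n = 4), with a range of 209 to 229.9. In LLC it was 325 ± 97.7 (SD, n = 6), and ran from 234 to 488, so that every LLC sample lay above every Control sample, LLC 4 only just. Map1lc3a supplied 48.7% ± 1.13 of this sum in Control and 48.7% ± 2.33 in LLC (SD, n = 4 and 6). The share of Gabarapl1 was 6.86% ± 0.260 in Control and 9.92% ± 2.84 in LLC, from 6.59% in LLC 2 to 14.0% in LLC 1. For Map1lc3b the share was 8.71% to 8.91% in Control and 9.28% to 12.4% in LLC, with no overlap. Gabarapl2 supplied 13.4% to 15.2% in Control and 7.62% to 13.1% in LLC, with a lower share in every LLC sample, although its own level was 72.3 CPM in Control and 78.4 CPM in LLC on average. These shares were looked at after the fold changes were known and carry no test.

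**Figure D3:**
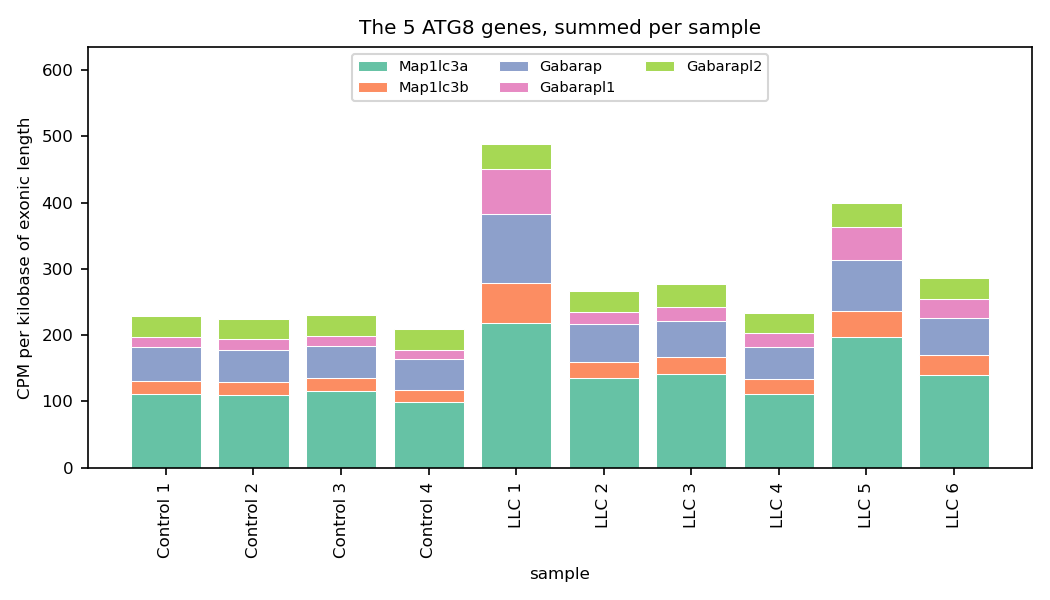
The bars give, for each of the 10 samples, the levels of the 5 ATG8 genes in CPM per kilobase of exonic length, stacked. The 4 Control bars end between 209 and 229.9, LLC 4 ends at 234, LLC 5 at 399.7 and LLC 1 at 488. Map1lc3a is the largest block in each bar on this scale, which depends on the annotated exonic length.

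Among the 7 cargo receptors and scaffolds 6 had positive estimates, and 4 were higher with no overlap between the groups, which 6.40% of all tested genes were. The median was 0.47, and 0.32 without LLC 1. Sqstm1 encodes p62, the receptor that links ubiquitin-tagged cargo to ATG8 proteins. Sqstm1 measured 478, 496, 475 and 468 CPM in Control and 1490.0, 536, 504, 498, 1067 and 722 CPM in LLC 1 to LLC 6. LLC 3 and LLC 4 lay just above the highest Control sample, while LLC 1, LLC 5 and LLC 6 were well above it. The estimate was 0.74 ± 0.30 with an adjusted p of 0.144, and 0.48 with an adjusted p of 0.124 without LLC 1.

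Retreg1 (FAM134B), a receptor for the turnover of the endoplasmic reticulum, had the largest estimate of the 44 genes and also the largest spread. It lies at chr15:25843180-25973687 on the plus strand. Retreg1 measured 146, 148, 149 and 138 CPM in Control and 1378, 212, 159.8, 172, 369.9 and 218 CPM in LLC 1 to LLC 6. The groups did not overlap, and the LLC samples differed 8.62-fold between the highest and the lowest. The log2 fold change of 1.53 ± 0.60 (adjusted p = 0.132) was 0.65 without LLC 1, with an adjusted p of 0.0503. This is the gene whose downstream start has the E-box shown above, and the counts do not separate its transcripts.

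Calcoco1, a receptor of the same CALCOCO family as NDP52, measured 96.0, 96.0, 87.7 and 91.3 CPM in Control and 106 to 177 CPM in LLC with a median of 121. All LLC samples lay above Control, and the values of LLC 2 to LLC 6 stayed between 106 and 133 CPM. The estimate was 0.47 ± 0.14 (adjusted p = 0.0636), DESeq2's adjusted p was 0.0200, and without LLC 1 edgeR gave 0.36 with 0.0121. Tax1bp1, another member of that family, measured 73.1, 74.0, 79.0 and 71.9 CPM against 81.5 to 198 CPM with a median of 89.4 (0.57 ± 0.24, adjusted p = 0.155). Its groups did not overlap, but LLC 2, LLC 3 and LLC 4 were at most 83.8 CPM. Nbr1, a receptor related to p62, had 0.38 ± 0.20 (0.18 without LLC 1), Optn (optineurin) 0.08 ± 0.11 and the scaffold Wdfy3 (ALFY) -0.09 ± 0.13.

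The mitophagy genes fell into values of both signs. Pink1, the kinase that marks damaged mitochondria, had the highest level per kilobase of the 44 genes in both groups. Pink1 measured 793, 781, 819 and 759 CPM in Control and 898, 921, 1031, 912, 1197 and 966 CPM in LLC 1 to LLC 6. The groups did not overlap, and LLC 1 was the lowest of the 6, unlike for most of the other genes. The estimate was 0.33 ± 0.10 (adjusted p = 0.0834), with 0.0109 by DESeq2, and 0.36 without LLC 1 with an adjusted p of 0.0201. 2 small RNA genes share exonic sequence with Pink1 on the same strand, and both had 0 counts in every library. Those 0 counts do not show whether reads on the shared bases were left out of the Pink1 counts.

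The receptors on the mitochondrial outer membrane differed from each other. Bnip3 measured 151, 162, 159.6 and 143 CPM in Control and 675, 186, 180.4, 149.7, 251 and 203 CPM in LLC 1 to LLC 6, so that LLC 4 lay within the Control range and LLC 1 far above all others. Its estimate of 0.83 ± 0.38 (adjusted p = 0.184) was 0.34 without LLC 1. Bnip3l (NIX) measured 47.1, 54.5, 52.3 and 51.5 CPM against 57.4 to 99.5 CPM with a median of 62.0. The Bnip3l groups did not overlap (0.42 ± 0.15, adjusted p = 0.107), and without LLC 1 the estimate was 0.30 with an adjusted p of 0.0296. Fundc1, another receptor on that membrane, had a negative estimate of -0.22 ± 0.12 (adjusted p = 0.252). Mitochondrially encoded genes took 28.4% to 30.7% of counts in Control and 22.0% to 27.9% in LLC, and the part this has in the mitophagy values was not tested.

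**Figure D4:**
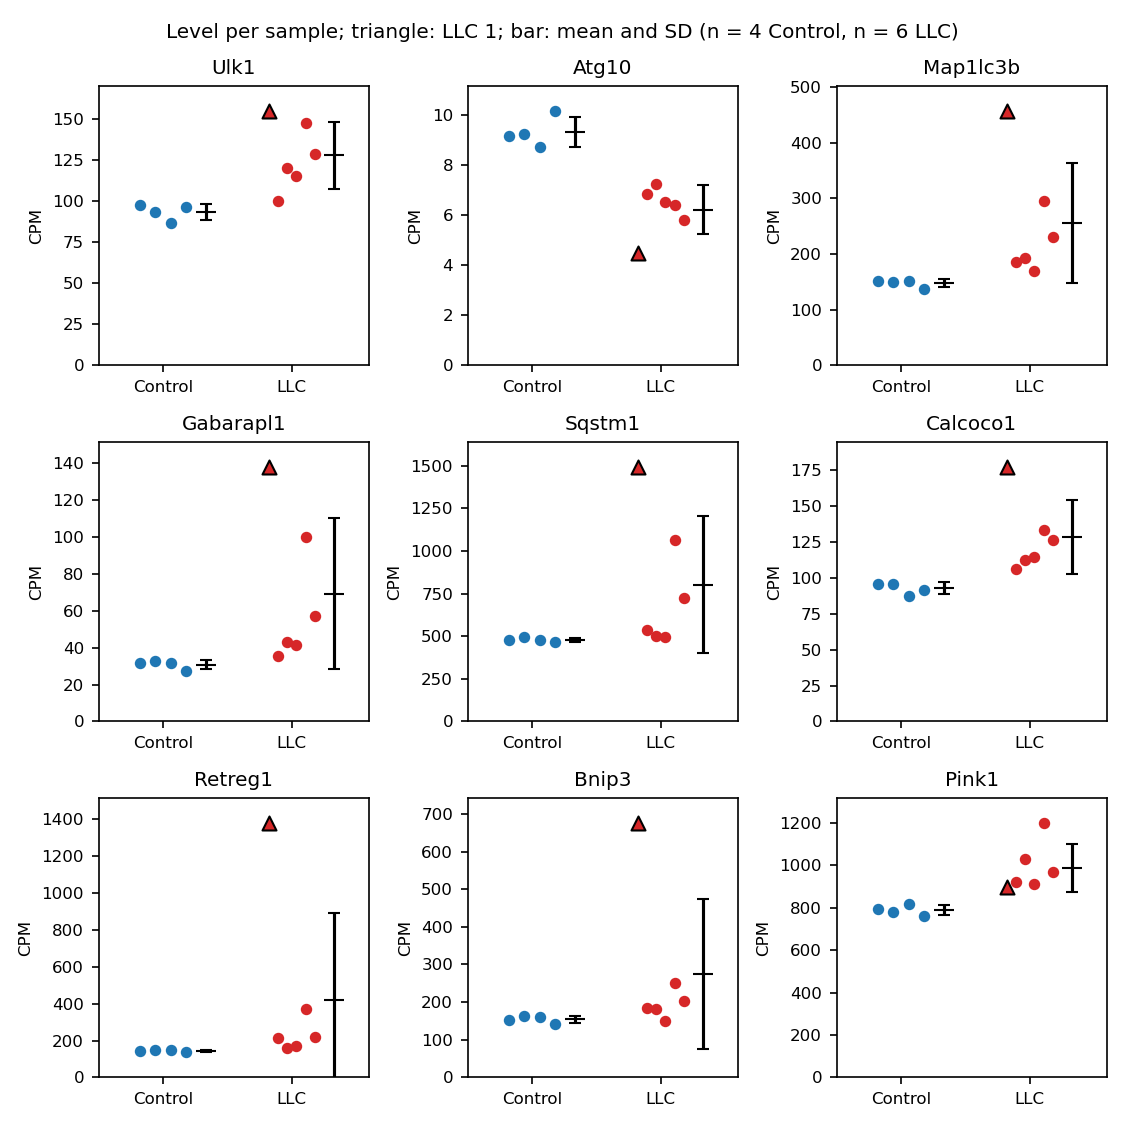
Each panel gives the CPM of 1 gene in the 4 Control samples (blue) and the 6 LLC samples (red), with LLC 1 as a triangle and the mean and SD beside the points. The lower SD bar of LLC reaches below 0 for Retreg1 and is cut at the axis. LLC 1 is the highest sample for Retreg1 (1378 CPM), Bnip3 (675 CPM) and Sqstm1 (1490.0 CPM), the lowest for Atg10 (4.47 CPM), and the lowest of the LLC samples for Pink1 (898 CPM).

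Tfeb encodes a transcription factor that drives lysosomal and autophagy genes. Tfeb measured 59.5, 56.8, 55.9 and 55.7 CPM in Control and 60.5 to 79.7 CPM in LLC with a median of 62.7. The groups did not overlap, by a small margin (0.21 ± 0.09, adjusted p = 0.168), and here LLC 5 and not LLC 1 was the highest. The related factor Tfe3 had -0.00033 ± 0.12, with a sign that changed to 0.01 under median-of-ratios factors, and was the lowest of the 44 per kilobase. Lamp2, a lysosomal membrane protein, had 0.46 ± 0.24 (adjusted p = 0.227) and 0.20 without LLC 1.

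Taking the groups side by side, the median log2 fold change was 0.34 for initiation, 0.35 for nucleation, 0.07 for expansion, -0.01 for conjugation, 0.53 for ATG8 proteins, 0.47 for cargo receptors, 0.37 for mitophagy and 0.21 for the lysosomal genes. Without LLC 1 these were 0.20, 0.07, 0.09, 0.01, 0.42, 0.32, 0.32 and 0.20. The nucleation median was thus the one that depended most on LLC 1. Within single LLC samples the median log2 ratio to the Control mean over ATG8 genes was 1.11 in LLC 1, 0.23 in LLC 2, 0.38 in LLC 3, 0.04 in LLC 4, 0.85 in LLC 5 and 0.36 in LLC 6. Over cargo receptors it was 1.12, 0.16, 0.07, 0.14, 0.52 and 0.35 in the same order. For conjugation enzymes it stayed between -0.07 and 0.01 in all 6. The groups are small and their genes are not replicates, so the medians are a description.

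Levels per kilobase spanned a wide range, and their order depends on the same annotated exonic length as the ATG8 shares. In Control the highest were Pink1 (295 CPM per kilobase), Sqstm1 (143), Map1lc3a (109), Bnip3 (67.9) and Gabarap (48.2), and the lowest were Tfe3 (1.02), Uvrag (1.07), Atg7 (1.35) and Pik3r4 (1.42). In LLC the first 4 kept their order, with 369, 239, 157 and 121. Gabarapl1 went from the 14th to the 7th place, at 15.3 and 34.4, and Atg10 from the 27th to the 33rd, at 5.42 and 3.61. These places rest on group means. For Gabarapl1 LLC 1 and LLC 5 were at 138 and 100.1 CPM, and the other LLC samples at 35.5 to 57.4 CPM. Neighbours in this order often did not differ beyond their spread.

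LLC samples varied more than Control samples for most of these genes. On the log2 CPM scale 43 of 44 genes (97.7%) had a larger SD in LLC, the exception being Pik3r4, where 85.1% of all tested genes had a larger SD in LLC. The median SD was 0.08 in Control and 0.25 in LLC over the 44 genes, and 0.13 and 0.28 over all genes. LLC 1 was the highest LLC sample for 27 of the 44 genes (61.4%, against 32.8% of all genes) and the lowest for 11 (25.0%, against 33.2%). Of the 13 genes without overlap that were higher in LLC, LLC 1 was highest for 11 and LLC 5 for the other 2. LLC 4 was the lowest LLC sample for 13 of the 44 genes (29.5%, against 16.3% of all genes) and LLC 2 for 10 (22.7%, against 12.1%). LLC 1 also had the lowest fast-fibre marker sum given above, and the part of that in these values was not tested.

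Other genes of the pathway were taken from a list of vesicle fusion factors, further receptors, further regulators and the lysosomal proton pump. Of 60 such genes tested, 41 had a positive estimate and the median was 0.06. By the adjusted p, 1 rose (1.67%, against 2.14% of all genes) and 1 fell (1.67%, against 4.85%). Groups without overlap numbered 7 higher (11.7%, against 6.40%) and 3 lower (5.00%, against 9.57%). Snap29, a SNARE that fuses autophagosomes with lysosomes, measured 27.8, 27.4, 28.0 and 27.0 CPM in Control and 31.2 to 39.5 CPM in LLC with a median of 35.9. Its groups did not overlap and its log2 fold change was 0.36 ± 0.09 (adjusted p = 0.0351), a call that was lost without any 1 of the 4 Control samples and without LLC 3, LLC 5 or LLC 6. Bcl2, an inhibitor of apoptosis that also binds Beclin 1, fell, with -1.16 ± 0.24 (adjusted p = 0.0135), and was the only one of the 60 past both limits. Its call was lost without Control 1.

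The largest changes in each of these lists otherwise did not pass the test. They were Plekhm1 (0.45 ± 0.21) and the SNARE Vamp8 (-0.47 ± 0.15) among fusion factors, Tollip (0.51 ± 0.18) and the endoplasmic reticulum receptor Sec62 (0.49 ± 0.17) among receptors, and Depp1 (1.31 ± 0.61) among regulators. In the proton pump and lysosomal membrane list 15 of 17 estimates were positive with a median of 0.13, led by the pump subunits Atp6v1h (1.20 ± 0.49) and Atp6v0e (0.53 ± 0.25). Atp6v1h was 76.6 CPM in LLC 1, 26.9 in LLC 5 and 13.9 to 15.4 in the other LLC samples, against 10.1 to 12.8 CPM in Control.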

How the data were processed

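Per the labels, total RNA of tibialis anterior was made into strand-specific libraries and sequenced from both ends. The submitters' processing notes name FastQC, TopHat, HTSeq, DESeq2 and build mm10. The authors deposited 1 table of raw read counts a sample, in whole numbers. Their methods name RefSeq genes and HTSeq at its default settings, under which reads are counted by strand. Whether the tables were counted in that way was not tested. The tables list Ensembl identifiers instead of RefSeq genes, and the annotation release is not given in the sources used here. Of 39179 identifiers, 37693 were found in GENCODE M21 (GRCm38).

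Groups came from the sample titles. Genes were kept by edgeR's filterByExpr (count minimum of 10), scaled by TMM and tested with edgeR 4.0.16 (glmQLFTest, R 4.3.3), group as the only term and Benjamini-Hochberg adjustment over 12690 genes. SEs come from the F statistic. The prior count for log2 CPM was 2. The test was checked on simulated data with the same spread in both groups and no outlying sample. That check does not cover the larger spread in LLC. DESeq2 1.42.0, limma 3.58.1, other scalings, filters, a replicate block and left-out samples were alternatives. The p-values measure the spread between samples, which holds both the spread between mice and counting error. Counting error weighs more for genes with few counts, such as Atg10 and Atg4c, whose lowest counts in a library were 87 and 73. The 44 members and all lists were chosen with earlier results of these data known. All members are named, with values for those with an adjusted or unadjusted p of 0.05 or less or no overlap. Of the other lists, genes with an adjusted p of 0.05 or less and the 2 largest changes in each are named. Of 62 listed pathway genes 60 were tested, and 2 are not analysed here. Exons of 15 members overlap another gene's.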

Additional observations from a re-analysis of the deposited data

Results flagged for a closer look

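For each of the 44 genes, both groups were searched for a sample far from the others by Dixon's criterion, 88 groups of samples in all, of which chance alone flags about 1 in 20, or 4.4. There were 14, and 10 of them were LLC 1. LLC 1 lay far above the other LLC samples for Rb1cc1 (148.6 CPM, next 100.7), Uvrag (23.24 CPM), Atg7 (16.97 CPM), Nbr1 (182.7 CPM), Tax1bp1 (197.7 CPM), Retreg1 (1378 CPM), Bnip3 (674.7 CPM), Bnip3l (99.45 CPM) and Lamp2 (163.2 CPM), and far below them for Atg101 (12.65 CPM, next 18.84). In Control, sample 2 was far above the others for Pik3c3 (16.44 CPM) and far below for Uvrag (9.283 CPM), sample 4 was low for Map1lc3b (136.7 CPM) and sample 3 for Fundc1 (19.74 CPM). In the 4 Control cases the whole group spanned a narrow range. What sets LLC 1 apart was not tested.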

How the results depend on the processing

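Of 44 genes, 0 passed both limits. The count was 1 (Atg10) with upper-quartile factors, 1 with mitochondrial genes left out and 1 with at least 10 counts in every sample, 2 with DESeq2, 4 at an unadjusted p, 2 with a lower limit on the fold change, and 0 to 2 with each sample left out in turn. By the adjusted p alone the count of 2 became 1 with no filter and 1 with 10 counts in every sample. It was 7 with DESeq2 (1508 calls over all genes against 887) and 12 with limma voom (2279 calls). With a sample left out it was 0 to 9 (434 to 1796 calls), 9 being without LLC 1. At an unadjusted p the 20 genes became 11 to 25 with a sample left out and 8 with the replicate block. Ulk1 lost its call in 10 of 19 alternatives and Atg10 in 5. The median over the members moved to 0.132 with limma voom and ran from 0.154 (without LLC 1) to 0.291 with a sample left out. The nucleation median was 0.048 with voom and the conjugation median -0.045 with upper-quartile factors. Genes lower without overlap numbered 1 to 2 with a sample left out, genes higher without overlap 13 to 17, and positive estimates 31 to 34. Replicate numbers mark different mice, and the deviations of same-numbered samples correlated at -0.0292, 0.00932, -0.0814 and 0.126, so they do not pair the samples. With the replicate number as a block, 0 members and 112 genes in all passed the adjusted p, and Wdfy3 read 0.019.

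Estimates near 0 changed sign. Tfe3 became 0.011 with median-of-ratios factors, 0.011 with no filter and 0.012 with DESeq2, and ran from -0.043 to 0.064 with a sample left out. Pik3r4 became -0.025 with upper-quartile factors and -0.00279 with 10 counts in every sample, and ran from -0.032 to 0.064 with a sample left out. Atg5 became -0.012 with upper-quartile factors and -0.0082 with voom (-0.011 to 0.062 with a sample left out), Atg4a 0.034 with voom (-0.093 to 0.016) and Ulk2 0.0062 with voom, while Atg2a ran from -0.015 to 0.081. The causes were not tested, and 6 against 4 mice limit what could be called.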
